A study of Mus musculus with 12 samples.

Results

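The endoplasmic reticulum (ER) chaperones, the stress sensors of this compartment and the machinery of ER-associated degradation were examined as a set of 34 named genes among the 18193 genes measured. The 83 probe sets that name a member were reduced to the brightest of each gene, by its average on the 12 arrays. The cells were STHdh striatal lines, immortalised cells from the striatum of embryonic mice with a knock-in at the huntingtin locus, which codes for the protein whose expanded polyglutamine tract underlies Huntington's disease. RNA was hybridised to Affymetrix MG430 2.0 arrays, which read each transcript through sets of short probes.

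Q111 cells (STHdhQ111/Q111) carry the expanded tract on both alleles and Q7 cells (STHdhQ7/Q7) the short wild-type tract. Both were grown at 33 °C in medium with serum and 400 µg/ml of the antibiotic G418 and were used up to passage 15. Heat-shocked cells of each line spent 6 h at 42 °C, and the others stayed at 33 °C with no treatment. The 4 groups were heat-shocked Q111 cells, Q111 cells at 33 °C, heat-shocked Q7 cells and Q7 cells at 33 °C, with 3 arrays each. Each genotype was represented by 1 line, so genotype and line cannot be told apart. STHdh cells are known to be immortalised with a temperature-sensitive large T antigen, which temperature itself affects, and its part in the results was not tested. The labels do not say whether the 3 arrays of a group came from separate cultures, so the p-values measure the spread between these arrays, which may be technical. RNA was from whole cultures, in which fewer cells of a type and less RNA per cell cannot be told apart.

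Proteins that enter the ER fold with the help of an Hsp70 chaperone and its J-domain partners, of lectin chaperones that hold glycoproteins, and of disulfide isomerases, and chains that fail to fold are ubiquitinated, pulled out through the membrane and degraded by the proteasome. When unfolded chains accumulate, the sensors IRE1, PERK and ATF6 start the unfolded protein response: IRE1 splices the Xbp1 mRNA, ATF6 is cut to release a transcription factor, and PERK phosphorylates the initiation factor eIF2. The cytosolic heat shock response runs through another factor, HSF1, and heat is known to disturb folding in both compartments.

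Many genes of the set are known as targets of ATF6 and XBP1 through the ER stress element, a CCAAT box and a CCACG box at a fixed spacing in the promoter. A search of promoter windows from RefSeq (build GRCm38.p6, 250 bases before to 50 bases after the gene start) found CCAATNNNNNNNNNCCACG, on either strand, in 9 of the 30 members that had a window, against 0.119% of 32851 windows of the same length. Atf6, Manf, Derl1 and Hyou1 had no window. The windows below belong to the 4 holders of this element with the largest rise after heat in either line, and show where it lies in genes that changed. They are Pdia6 (chr12:17266339-17266638, plus strand), Syvn1 (chr19:6046326-6046625, plus strand), Creld2 (chr15:88819396-88819695, plus strand) and Canx (chr11:50325624-50325923, minus strand), written 5′ to 3′ along the gene, with the element in capitals.
Pdia6: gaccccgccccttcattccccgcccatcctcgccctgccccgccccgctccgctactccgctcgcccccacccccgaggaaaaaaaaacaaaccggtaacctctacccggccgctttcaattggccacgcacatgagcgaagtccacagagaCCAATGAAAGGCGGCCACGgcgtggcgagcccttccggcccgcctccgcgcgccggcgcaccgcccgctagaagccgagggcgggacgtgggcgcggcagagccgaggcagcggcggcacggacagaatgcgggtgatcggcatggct
Syvn1: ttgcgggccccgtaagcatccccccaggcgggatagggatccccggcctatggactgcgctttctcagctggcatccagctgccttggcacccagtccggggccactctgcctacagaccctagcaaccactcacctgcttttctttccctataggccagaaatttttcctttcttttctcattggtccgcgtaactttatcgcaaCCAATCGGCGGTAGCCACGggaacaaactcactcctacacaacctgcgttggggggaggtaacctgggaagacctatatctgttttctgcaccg
Creld2: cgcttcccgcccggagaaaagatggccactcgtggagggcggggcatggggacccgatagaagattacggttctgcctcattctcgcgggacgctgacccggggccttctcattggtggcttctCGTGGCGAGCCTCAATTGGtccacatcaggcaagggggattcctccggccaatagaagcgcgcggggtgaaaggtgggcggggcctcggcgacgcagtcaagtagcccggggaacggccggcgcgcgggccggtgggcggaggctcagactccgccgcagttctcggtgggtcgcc
Canx: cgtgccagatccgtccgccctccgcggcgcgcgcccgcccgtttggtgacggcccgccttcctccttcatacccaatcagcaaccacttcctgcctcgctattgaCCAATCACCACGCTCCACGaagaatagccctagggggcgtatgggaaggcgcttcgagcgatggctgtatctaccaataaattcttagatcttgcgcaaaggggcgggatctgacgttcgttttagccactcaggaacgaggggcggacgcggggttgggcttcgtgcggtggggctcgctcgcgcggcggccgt
In Creld2 the capitals run from the CCACG box to the CCAAT box on the opposite strand. With the gene start as position 0, the element began at -98 in Pdia6, -44 in Syvn1, -126 in Creld2 and -145 in Canx.

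The elements of the other 5 holders, none of them called after heat, are given on the strand that reads CCAAT first, with the 2 boxes in capitals.
Hspa5: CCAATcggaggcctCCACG
Calr: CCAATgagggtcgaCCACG
Derl3: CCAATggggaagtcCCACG
Hsp90b1: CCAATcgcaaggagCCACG
Hsp90b1: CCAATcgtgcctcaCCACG
Dnajc3: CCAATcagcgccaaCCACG
Hsp90b1 held 2 matches, at -212 and at -107. ER stress element II, in which ATTGG and the same CCACG letters lie 1 base apart, was matched in Dnajb11 and Herpud1, 2 of 30 members against 0.0365% of all windows. The letters TGACGTGG, the core bound by XBP1 and ATF6, were matched in Vcp, 1 of 30 members against 0.676%. No member window held the composite CHOP-ATF4 element TGATGNAAT, found in 0.965% of all windows, or the heat shock element GAANNTTCNNGAA, found in 0.603%.

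Heat shock was visible in the genes that mark it. Hspa1a, an inducible cytosolic Hsp70, rose by 6.48 ± 0.22 on the log2 scale in Q111 cells and 5.48 ± 0.22 in Q7 cells (± SE, n = 3 against 3). The gap between 3′ and 5′ actin controls, which widens when RNA is shortened, was 1.25 ± 0.23 in heat-shocked Q111 cells and 0.72 ± 0.36 in Q111 cells at 33 °C, and 1.48 ± 0.12 in heat-shocked Q7 cells and 0.54 ± 0.16 in Q7 cells at 33 °C (SD, n = 3 each). Replicate 2 of the Q111 cells at 33 °C had a gap of 1.14, against 0.49 and 0.53 on replicates 1 and 3. It lay above heat-shocked Q111 replicate 1, at 0.99. The median level over genes was 6.64 ± 0.18 in heat-shocked Q111 cells and 7.36 ± 0.08 in Q111 cells at 33 °C, and 7.01 ± 0.19 in heat-shocked Q7 cells and 7.37 ± 0.09 in Q7 cells at 33 °C (SD, n = 3 each), so heat-shocked arrays were lower in both lines. Huntingtin mRNA (Htt) differed by -1.29 at 33 °C and -1.15 after heat shock, Q111 minus Q7. Of the 10 striatal projection neuron markers 8 were measured, and Drd2 was within background range on every array. Markers of other types were partly in that range on every array too, 4 of 5 measured for oligodendrocytes, 4 of 5 for endothelium and 3 of 6 for microglia. The count was 1 of 6 (Gfap) for astrocytes and 0 of 6 for neurons. In both lines at 33 °C further markers had means below the bound of that range, 5.14. These included the neuronal markers Snap25, Syt1 and Dcx, the striatal markers Ppp1r1b, Drd1 and Bcl11b, and the astrocyte markers Aqp4 and S100b. Other markers of these lists were above the bound in both lines at 33 °C. They were Tubb3, Map2, Rbfox3, Rgs9, Pde10a, Aldh1l1, Slc1a3 and Slc1a2, and Penk and Tac1 were above it in Q7 cells alone. Map2 had means of 8.88 in Q111 cells and 9.46 in Q7 cells, and Slc1a3 of 9.83 and 7.86.

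Levels below are log2 RMA signals, and differences are on the log2 scale with SE from limma. A member is called higher or lower when its adjusted p is under 0.05, with Benjamini-Hochberg adjustment over all 18193 genes. Of the 34 members 33 were above 5.14, the highest value of bacterial control probe sets, on every array, and Derl3 was never above it. Mean levels of the 33 lay between 7.92 and 13.02, and levels of different probe sets are not compared with each other. Among heat-shocked Q111 arrays replicate 3 was the lowest for 23 of 34 members.

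Members changed in both directions after heat shock. Small stress proteins (Sdf2l1 and Manf), 3 disulfide isomerases, the J-domain protein Dnajb9 and the sensor Eif2ak3 rose in both lines, and the chaperones Hspa5, Hsp90b1, Hyou1, P4hb and Calr were not called in either. The degradation genes Os9, Sel1l and Vcp, the reductase Dnajc10 and the sensor Atf6 fell in both lines. In Q111 cells 8 members were called higher and 7 lower, against 20.0% and 28.2% of all genes, and in Q7 cells 10 were called higher and 5 lower, against 12.3% and 18.1%. The Q111 counts lie near or below those of genes at large. The median change of the members was 0.07 in Q111 cells, against -0.02 over all genes, and 0.20 in Q7 cells, against 0.0026 over all genes. Many of those genes are dimmer than the members. With genes dimmer than the median gene left out, the background medians were -0.36 in Q111 cells and -0.12 in Q7 cells. The members' medians were then 0.07 and 0.20, above these brighter genes in both lines. The size of this gap was not tested. The lists called higher shared 7 members, Dnajb9, Eif2ak3, Manf, Pdia3, Pdia4, Pdia6 and Sdf2l1, which is 87.5% of the Q111 list and 70.0% of the Q7 list. The lists called lower shared 5, Atf6, Dnajc10, Os9, Sel1l and Vcp, which is 71.4% of the Q111 list and all 5 of the Q7 list.

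These counts moved with the scaling of the arrays and with the array left out. With each array centred on the median of its genes, the median change of all genes became 0.71 in Q111 cells and 0.35 in Q7 cells, the members' medians became 0.80 and 0.55, and the counts became 26 higher and 1 lower in Q111 cells and 22 higher and 2 lower in Q7 cells. Centring on ribosomal protein genes gave 5 higher and 5 lower in Q7 cells. The 10 members called higher in Q7 cells became 5 without heat-shocked Q7 replicate 3 and 6 without heat-shocked Q7 replicate 1 or 2 or without replicate 2 or 3 of the Q7 cells at 33 °C. With the actin gap added to the model, 2 members, Pdia4 and Sdf2l1, were called higher and 0 lower in Q7 cells. The other 13 members called there kept their direction but not the call, and the median of the members became 0.30. The heat-shocked Q7 arrays all lay above the Q7 arrays at 33 °C in that gap, and its part in these changes was not tested further.

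**Figure D1:**
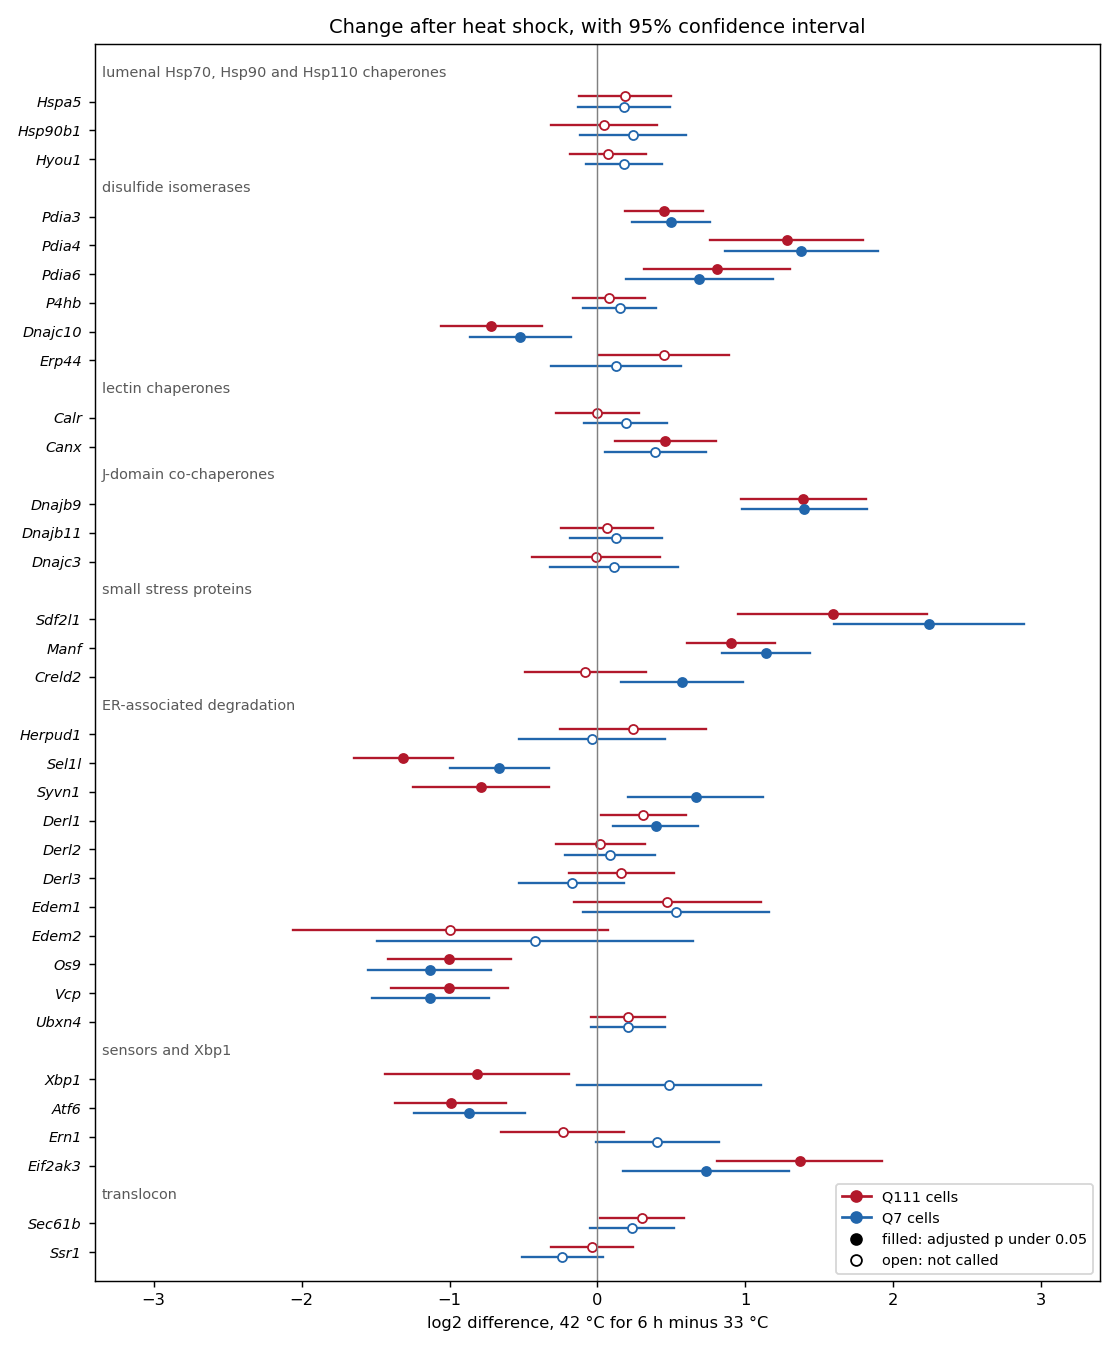
Change of each of the 34 ER genes after heat shock, as the log2 difference between 42 °C for 6 h and 33 °C with its 95% confidence interval, in Q111 cells (red) and Q7 cells (blue), grouped by role. Filled points passed an adjusted p of 0.05. Sdf2l1, Dnajb9, Pdia4 and Manf lie to the right in both lines, Os9, Vcp and Atf6 to the left in both, and the filled points of Syvn1 lie on opposite sides of 0.

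The small stress proteins held the largest rise. Sdf2l1, a partner of the Hsp70 system of the ER, read 9.77, 10.27 and 9.03 on the 3 heat-shocked Q111 arrays, against 8.22, 7.78 and 8.30 on the Q111 arrays at 33 °C. In Q7 cells it read 10.81, 10.20 and 10.56 after heat shock, against 7.99, 8.35 and 8.50 at 33 °C. Every heat-shocked array lay above every array of its line at 33 °C, and heat-shocked Q111 replicate 3 was the lowest of the heat-shocked arrays. The change was 1.59 ± 0.29 in Q111 cells, 3.01-fold (limma, adjusted p = 0.00116), and 2.24 ± 0.29 in Q7 cells, 4.74-fold (adjusted p = 0.000208).

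Manf codes for a secreted protein that binds Hspa5 and protects neurons in several models. Its levels were 11.88, 12.17 and 11.82 in heat-shocked Q111 cells, against 10.98, 10.99 and 11.19 in Q111 cells at 33 °C. They were 12.47, 12.36 and 12.44 in heat-shocked Q7 cells, against 11.21, 11.41 and 11.23 in Q7 cells at 33 °C. The groups of a line did not overlap, and the heat-shocked Q7 arrays were the highest of the 12. Manf rose by 0.91 ± 0.14 in Q111 cells and by 1.14 ± 0.14 in Q7 cells (limma, adjusted p = 0.000319 and 0.000119).

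Creld2, a lumenal protein with thioredoxin-like activity, differed in call between the lines. It read 11.07, 11.11 and 10.64 in heat-shocked Q111 cells, against 10.79, 11.12 and 11.16 in Q111 cells at 33 °C, and these arrays overlap. It read 11.94, 11.67 and 11.81 in heat-shocked Q7 cells, against 10.97, 11.53 and 11.20 in Q7 cells at 33 °C, where all heat-shocked arrays were higher. The change was -0.08 ± 0.19 in Q111 cells (limma, adjusted p = 0.738) and 0.57 ± 0.19 in Q7 cells (adjusted p = 0.0385). The difference between these changes, -0.65 ± 0.26, was not called (adjusted p = 0.184). The Q7 call was lost, with values of 0.44 to 0.64, when any heat-shocked Q7 array or replicate 1 or 3 of the Q7 cells at 33 °C was left out.

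**Figure D2:**
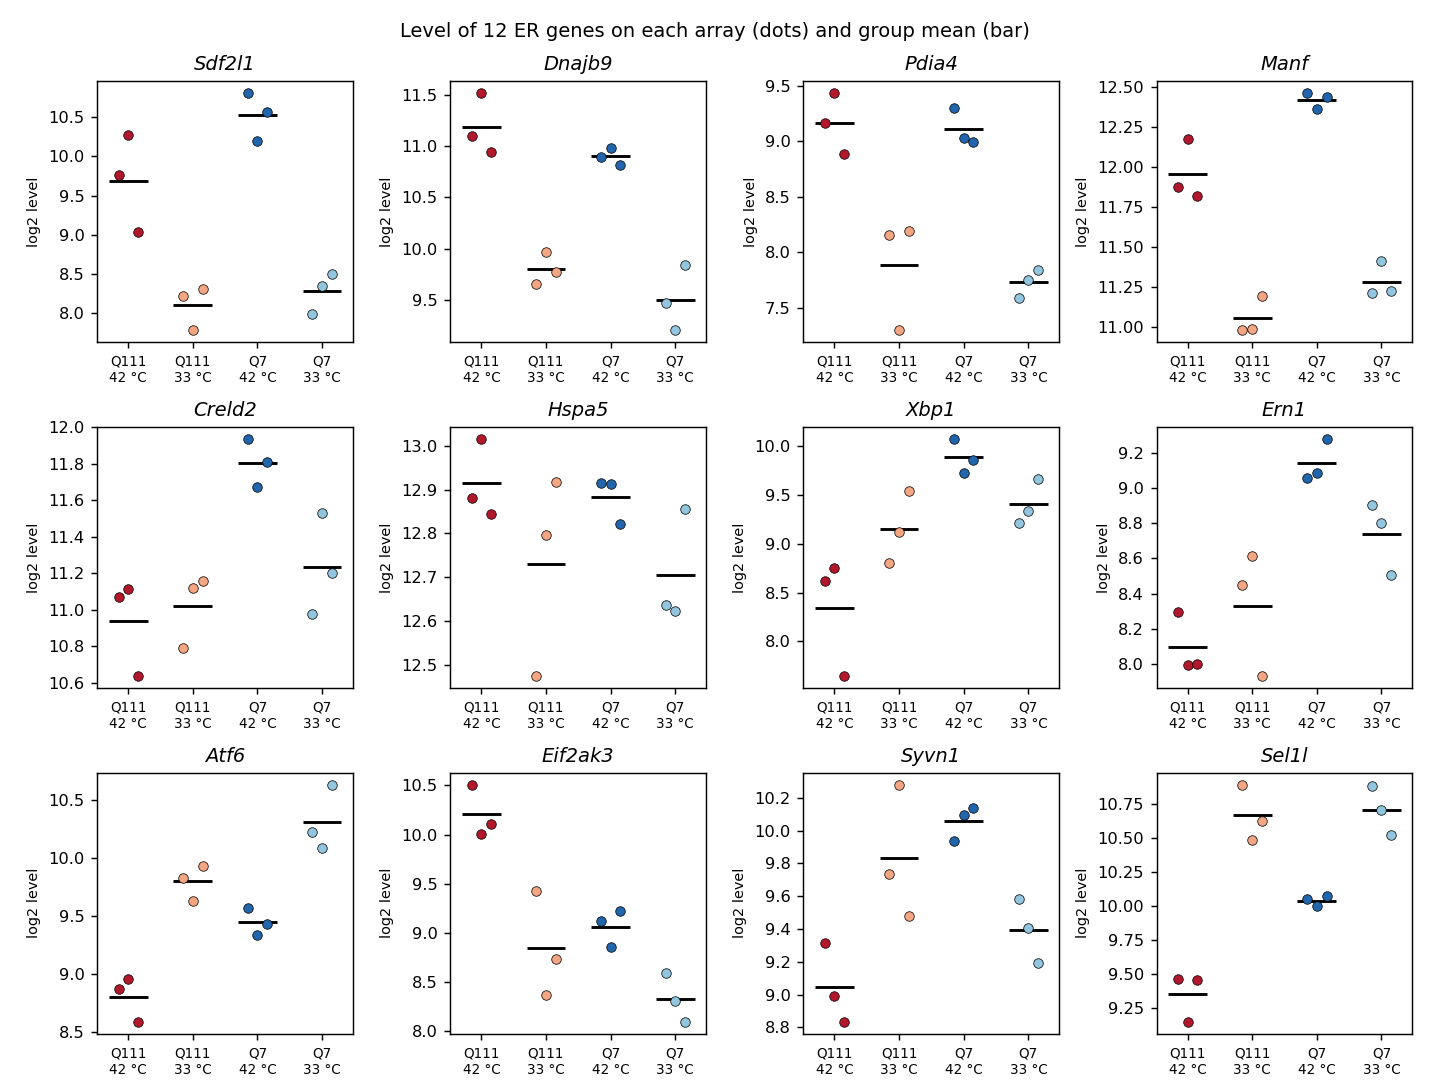
log2 level of 12 ER genes on each array (dots) with the group mean (bar), for heat-shocked Q111 cells, Q111 cells at 33 °C, heat-shocked Q7 cells and Q7 cells at 33 °C. Each panel has its own vertical axis. Sdf2l1, Dnajb9, Pdia4 and Manf sit higher after heat shock in both lines, Atf6 and Sel1l sit lower, and Xbp1, Ern1, Creld2 and Syvn1 have their lowest mean in heat-shocked Q111 cells and their highest in heat-shocked Q7 cells.

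Of the 3 J-domain co-chaperones 1 rose in each line. Dnajb9, known as ERdj4 and as a partner that keeps the IRE1 sensor inactive, read 11.10, 11.52 and 10.94 in heat-shocked Q111 cells, against 9.65, 9.97 and 9.77 in Q111 cells at 33 °C. In Q7 cells the levels were 10.90, 10.98 and 10.82 after heat shock, against 9.47, 9.20 and 9.84 at 33 °C. No array of a heat-shocked group fell within the range of its 33 °C group. The rise was 1.39 ± 0.19 in Q111 cells and 1.40 ± 0.19 in Q7 cells (limma, adjusted p = 0.000191 and 0.000295), with a 95% interval of -0.60 to 0.59 for the difference. Dnajb11, the J-domain partner ERdj3, had a difference of 0.06 in Q111 cells and 0.12 in Q7 cells without a call. The same was true of Dnajc3, known as p58IPK and an inhibitor of PERK, at -0.01 in Q111 cells and 0.11 in Q7 cells on its brightest probe set. Its next 3 probe sets gave 0.04, 0.09 and 0.54 in Q111 cells and 0.76, 0.83 and 1.01 in Q7 cells, with all 3 called higher in Q7 cells and the last of them also in Q111 cells, so the Dnajc3 probe sets disagree.

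Disulfide isomerases went both ways. Of 6 members 3 rose and 1 fell in each line. Pdia4 (ERp72) read 9.17, 9.44 and 8.89 in heat-shocked Q111 cells, against 8.16, 7.30 and 8.19 in Q111 cells at 33 °C, where replicate 2 was the lowest of all 12 arrays. It read 9.30, 9.03 and 8.99 in heat-shocked Q7 cells, against 7.59, 7.76 and 7.85 in Q7 cells at 33 °C. All heat-shocked arrays were above all arrays at 33 °C, in both lines. Pdia4 rose by 1.28 ± 0.24 in Q111 cells and 1.38 ± 0.24 in Q7 cells (limma, adjusted p = 0.00116 and 0.00113). Pdia6 (P5) rose by 0.81 ± 0.23 in Q111 cells and 0.69 ± 0.23 in Q7 cells (limma, adjusted p = 0.0123 and 0.038), and the Q7 call was lost, with values of 0.58 to 0.77, without heat-shocked Q7 replicate 1 or 3, any Q7 array at 33 °C, or replicate 2 or 3 of the Q111 cells at 33 °C. A second Pdia6 probe set gave 0.05 in Q111 cells and 0.52 in Q7 cells without a call. Pdia3 (ERp57), which works with the lectin chaperones, rose by 0.45 ± 0.12 in Q111 cells and 0.49 ± 0.12 in Q7 cells (limma, adjusted p = 0.00998 and 0.00884).

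Dnajc10 (ERdj5), a reductase with a J domain that prepares substrates for degradation, fell, with changes of -0.72 ± 0.16 in Q111 cells and -0.52 ± 0.16 in Q7 cells (limma, adjusted p = 0.00315 and 0.0247). With arrays centred on the median of genes its value in Q111 cells was 0.01. In Q7 cells its call was lost, with values of -0.52 to -0.46, without heat-shocked replicate 2 or 3 or without replicate 1 or 3 of the cells at 33 °C. P4hb, the classical protein disulfide isomerase, had a difference of 0.08 in Q111 cells and 0.15 in Q7 cells. Erp44, which retains thiol-bearing clients, had a difference of 0.45 in Q111 cells and 0.13 in Q7 cells. Neither P4hb nor Erp44 was called on these probe sets. The other Erp44 probe set was called lower in Q111 cells, at -1.02 (limma, adjusted p = 0.00831), and gave 0.09 in Q7 cells, so the Erp44 probe sets disagree.

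The 3 large lumenal chaperones were not called after heat shock. Hspa5 (BiP), the central Hsp70 of the ER and the usual readout of ER stress, read 12.88, 13.02 and 12.84 in heat-shocked Q111 cells, against 12.47, 12.80 and 12.92 in Q111 cells at 33 °C. It read 12.92, 12.91 and 12.82 in heat-shocked Q7 cells, against 12.64, 12.62 and 12.86 in Q7 cells at 33 °C. Arrays overlapped within each line, and the change was 0.18 ± 0.14 in Q111 cells (95% interval -0.13 to 0.50) and 0.18 ± 0.14 in Q7 cells (-0.13 to 0.49). Hsp90b1 (GRP94) had a difference of 0.04 in Q111 cells and 0.24 in Q7 cells, and Hyou1 (GRP170), which exchanges nucleotide on Hspa5, had 0.07 in Q111 cells and 0.18 in Q7 cells. Under centring on the median of genes these 3 genes moved with all genes to values of 0.91, 0.77 and 0.80 in Q111 cells and 0.53, 0.59 and 0.53 in Q7 cells, and were called higher.

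Of the lectin chaperones, Canx (calnexin, in the membrane) rose by 0.46 ± 0.16 in Q111 cells (limma, adjusted p = 0.0313) and had a difference of 0.39 ± 0.16 in Q7 cells without a call (adjusted p = 0.0813). All heat-shocked arrays were higher in both lines. The Q111 call was lost, with values of 0.37 to 0.47, without heat-shocked Q111 replicate 1 or 3 or replicate 2 or 3 of the Q111 cells at 33 °C. The difference between the changes was 0.07 ± 0.22 (limma, adjusted p = 0.893). Other Canx probe sets gave 1.12 and -0.45 in Q111 cells and 0.92 and -0.75 in Q7 cells, where the first was called higher in both lines and the second lower in Q7 cells. Calr (calreticulin, its soluble relative) had a difference of -0.00 in Q111 cells and 0.19 in Q7 cells without a call.

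Among the 4 genes of stress sensing, Eif2ak3 and Atf6 were called in the same direction in both lines, and Xbp1 and Ern1 were not. Eif2ak3 (PERK) read 10.51, 10.01 and 10.11 in heat-shocked Q111 cells, against 9.42, 8.37 and 8.73 in Q111 cells at 33 °C. It read 9.12, 8.85 and 9.22 in heat-shocked Q7 cells, against 8.59, 8.30 and 8.09 in Q7 cells at 33 °C. Heat-shocked arrays were higher in both lines, without overlap. Eif2ak3 rose by 1.37 ± 0.25 in Q111 cells (limma, adjusted p = 0.00125) and by 0.73 ± 0.25 in Q7 cells (adjusted p = 0.0484). The Q7 call was lost, with values of 0.62 to 0.84, when any heat-shocked Q7 array, replicate 2 or 3 of the Q7 cells at 33 °C, heat-shocked Q111 replicate 2 or replicate 3 of the Q111 cells at 33 °C was left out. Its other 2 probe sets gave 0.06 and 0.20 in Q7 cells, not called. In Q111 cells they gave 0.62, not called, and 1.21, called higher.

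Atf6, the sensor that becomes a transcription factor after cleavage in the Golgi, read 8.87, 8.95 and 8.59 in heat-shocked Q111 cells, against 9.83, 9.63 and 9.93 in Q111 cells at 33 °C. It read 9.57, 9.34 and 9.43 in heat-shocked Q7 cells, against 10.22, 10.08 and 10.63 in Q7 cells at 33 °C. All heat-shocked arrays were lower in both lines. Atf6 fell, with changes of -0.99 ± 0.17 in Q111 cells and -0.87 ± 0.17 in Q7 cells (limma, adjusted p = 0.00076 and 0.0027), and its other 2 probe sets were called lower in both lines too.

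Xbp1, whose spliced mRNA codes for the transcription factor of the IRE1 branch, read 8.62, 8.75 and 7.64 in heat-shocked Q111 cells, against 8.80, 9.12 and 9.54 in Q111 cells at 33 °C. It read 10.08, 9.73 and 9.86 in heat-shocked Q7 cells, against 9.21, 9.34 and 9.67 in Q7 cells at 33 °C. All heat-shocked arrays were lower in Q111 cells and higher in Q7 cells, and Q111 replicate 3 lay well below the other heat-shocked Q111 arrays. Xbp1 fell in Q111 cells, with a change of -0.81 ± 0.28 (limma, adjusted p = 0.0346), and its change in Q7 cells was 0.48 ± 0.28 (adjusted p = 0.235). Without heat-shocked Q111 replicate 3 the Q111 value was -0.47 and no longer called (limma, adjusted p = 0.111). It was -0.83 and -0.62, also not called, without replicate 2 and without replicate 3 of the Q111 cells at 33 °C, and with arrays centred on the median of genes it was -0.09. The splicing of Xbp1 was not measured.

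Ern1 (IRE1), the kinase and endonuclease that splices Xbp1, read 8.30, 7.996 and 7.999 in heat-shocked Q111 cells, against 8.45, 8.61 and 7.93 in Q111 cells at 33 °C, with overlap. It read 9.06, 9.09 and 9.28 in heat-shocked Q7 cells, against 8.90, 8.80 and 8.51 in Q7 cells at 33 °C, without overlap. The change was -0.24 ± 0.19 in Q111 cells and 0.40 ± 0.19 in Q7 cells, and neither was called (limma, adjusted p = 0.324 and 0.136).

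Of the 11 members in ER-associated degradation 4 fell and 0 rose in Q111 cells, where 28.2% of all genes were called lower and 20.0% higher. In Q7 cells 3 fell and 2 rose, where 18.1% of all genes were called lower and 12.3% higher, so these counts lie within a few genes of the background. Sel1l, the adaptor that ties substrates to the ligase Syvn1, read 9.46, 9.15 and 9.46 in heat-shocked Q111 cells, against 10.89, 10.49 and 10.63 in Q111 cells at 33 °C. It read 10.05, 9.998 and 10.07 in heat-shocked Q7 cells, against 10.88, 10.70 and 10.52 in Q7 cells at 33 °C. The heat-shocked arrays were lower in both lines, and the Q111 ones were the lowest of all. Sel1l fell, with changes of -1.31 ± 0.15 in Q111 cells and -0.66 ± 0.15 in Q7 cells (limma, adjusted p = 6.58e-05 and 0.00662). It was also the 1 member still called lower in Q111 cells when arrays were centred on the median of genes, at -0.59.

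Os9, a lectin that recognises trimmed glycans on misfolded proteins, read 9.54, 9.25 and 8.84 in heat-shocked Q111 cells, against 10.36, 10.25 and 10.03 in Q111 cells at 33 °C. In Q7 cells it read 9.05, 8.67 and 9.01 after heat shock, against 10.15, 10.09 and 9.89 at 33 °C. No arrays overlapped, and Os9 fell, with changes of -1.002 ± 0.19 in Q111 cells and -1.13 ± 0.19 in Q7 cells (limma, adjusted p = 0.00136 and 0.000962).

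Vcp, the ATPase that pulls ubiquitinated proteins out of the membrane, read 11.80, 11.38 and 11.30 in heat-shocked Q111 cells, against 12.37, 12.70 and 12.41 in Q111 cells at 33 °C. In Q7 cells its levels were 11.61, 11.49 and 11.41 after heat shock, against 12.53, 12.93 and 12.45 at 33 °C. The heat-shocked arrays were again all lower, and Vcp fell, with changes of -1.001 ± 0.18 in Q111 cells and -1.13 ± 0.18 in Q7 cells (limma, adjusted p = 0.000978 and 0.000709). Centred on the median of genes, Atf6, Os9 and Vcp were -0.27, -0.28 and -0.27 in Q111 cells, not called, and -0.51, -0.78 and -0.78 in Q7 cells, where Os9 and Vcp were called lower. A second Vcp probe set gave -0.11 in Q111 cells and 0.43 in Q7 cells without a call.

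Syvn1 (HRD1), the ubiquitin ligase at the core of this pathway, moved in opposite directions on its brightest probe set. It read 9.32, 8.99 and 8.83 in heat-shocked Q111 cells, against 9.74, 10.28 and 9.48 in Q111 cells at 33 °C. It read 9.94, 10.10 and 10.14 in heat-shocked Q7 cells, against 9.58, 9.41 and 9.19 in Q7 cells at 33 °C. Heat-shocked arrays were all lower in Q111 cells and all higher in Q7 cells. Syvn1 fell in Q111 cells, with a change of -0.79 ± 0.21 (limma, adjusted p = 0.00952), and rose by 0.66 ± 0.21 in Q7 cells (adjusted p = 0.032). With arrays centred on the median of genes the Q111 value was -0.06 and the Q7 value 1.02. The Q7 call was lost, with values of 0.56 to 0.67, without heat-shocked Q7 replicate 2 or 3 or replicate 2 or 3 of the Q7 cells at 33 °C. A second Syvn1 probe set gave -0.19 in Q111 cells, not called, and 0.82 in Q7 cells, called higher, so the Q111 call rests on 1 probe set.

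The Derlins are channel-like proteins of retrotranslocation. On its brightest probe set Derl1 had a difference of 0.31 ± 0.13 in Q111 cells (limma, adjusted p = 0.0712) and rose by 0.39 ± 0.13 in Q7 cells (adjusted p = 0.0417), and the difference between the changes was -0.08 ± 0.19. The Q7 call was lost, with values of 0.28 to 0.44, when any heat-shocked Q7 array, replicate 1 or 2 of the Q7 cells at 33 °C, heat-shocked Q111 replicate 1, or replicate 1 or 3 of the Q111 cells at 33 °C was left out. Of the other 3 Derl1 probe sets 2 were called higher in both lines, at 0.89 and 1.14 in Q111 cells and 1.01 and 1.20 in Q7 cells, and the other gave 0.11 and 0.23, so the size of the Derl1 change differs between probe sets. Derl2 had a difference of 0.02 in Q111 cells and 0.08 in Q7 cells. Derl3 stayed within background range in every group, so its values are bounds and give no change.

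Edem2, one of the proteins that trim mannose to mark glycoproteins for disposal, read 8.21, 8.13 and 6.19 in heat-shocked Q111 cells, against 8.28, 8.57 and 8.66 in Q111 cells at 33 °C. It read 8.06, 7.05 and 7.74 in heat-shocked Q7 cells, against 7.43, 8.30 and 8.39 in Q7 cells at 33 °C. Replicate 3 of the heat-shocked Q111 cells stood far below the other arrays, and the changes of -0.99 ± 0.49 in Q111 cells and -0.42 ± 0.49 in Q7 cells were not called (limma, adjusted p = 0.111 and 0.569). Edem1, its relative, had a difference of 0.47 ± 0.29 in Q111 cells and 0.53 ± 0.29 in Q7 cells without a call. The less bright Edem1 probe set gave -1.13 in Q111 cells, called lower, and 0.18 in Q7 cells, and differed by 0.79 between the lines at 33 °C, called higher, so the Edem1 probe sets disagree.

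The remaining members were not called on their brightest probe sets. Herpud1, a membrane scaffold of the ligase complex, had a difference of 0.24 in Q111 cells and -0.04 in Q7 cells, and Ubxn4, which brings Vcp to the ER, had 0.20 in Q111 cells and 0.20 in Q7 cells. Of the other Ubxn4 probe sets 1 was called higher in Q111 cells, at 0.53, and the other in Q7 cells, at 0.53. Sec61b, a subunit of the translocon, had a difference of 0.30 in Q111 cells and 0.23 in Q7 cells. Ssr1, of the translocon-associated complex, had a difference of -0.04 in Q111 cells and -0.24 in Q7 cells. Other Ssr1 probe sets gave called rises of 1.33 in Q111 cells and 1.05 in Q7 cells and called falls of -2.04 in Q111 cells and -1.42 in Q7 cells, so no direction is given for Ssr1.

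Before heat shock no member was called between the lines on its brightest probe set. Q111 minus Q7 differences at 33 °C ran from -0.51 (Atf6) to 0.51 (Eif2ak3). Of the 34 members 0 were called higher and 0 lower, against 5.11% and 5.68% of all genes, and 3 (Atf6, Dnajc10 and Herpud1) had an unadjusted p under 0.05, against 20.3% of all genes. For Atf6 the Q111 arrays read 9.83, 9.63 and 9.93, while the Q7 arrays read 10.22, 10.08 and 10.63, so every Q111 array was lower (limma, adjusted p = 0.0886). Fitted on these 6 arrays with the replicate number as a block, the same difference of -0.51 was called (adjusted p = 0.0267). Dnajc10 differed by 0.39 ± 0.16 and Herpud1 by -0.51 ± 0.23, both without overlap of arrays and without a call (adjusted p = 0.162 and 0.227). Hspa5 differed by 0.02 ± 0.14, with a 95% interval of -0.29 to 0.34.

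After heat shock 8 members differed between the lines, and 7 of them were lower in Q111 cells. The 7 were the stress proteins Manf and Creld2, the degradation genes Sel1l and Syvn1, and Xbp1, Atf6 and Ern1, and the 1 higher was Eif2ak3. All 4 genes of stress sensing were thus called. Against these 7 of 34 members, 15.5% of all genes were called lower, and against the 1 called higher 6.58% of all genes were. The median difference was 0.01 over the members, and -0.0042 over all genes. With genes dimmer than the median gene left out, it was 0.01 over the members and -0.20 over the genes kept. With arrays centred on the median of genes, which moved the median difference of all genes to 0.37, 10 members were called higher and 4 lower (Creld2, Ern1, Syvn1 and Xbp1). A further quantile normalization gave 2 higher and 5 lower. A fit of the heat-shocked arrays alone with the replicate number as a block called 0 lower and 1 higher (Eif2ak3), with adjusted p of 0.0568 (Ern1) to 0.224 (Manf) in limma for the 7, while the block in the fit of all 12 arrays called 7 lower and 1 higher.

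**Figure D3:**
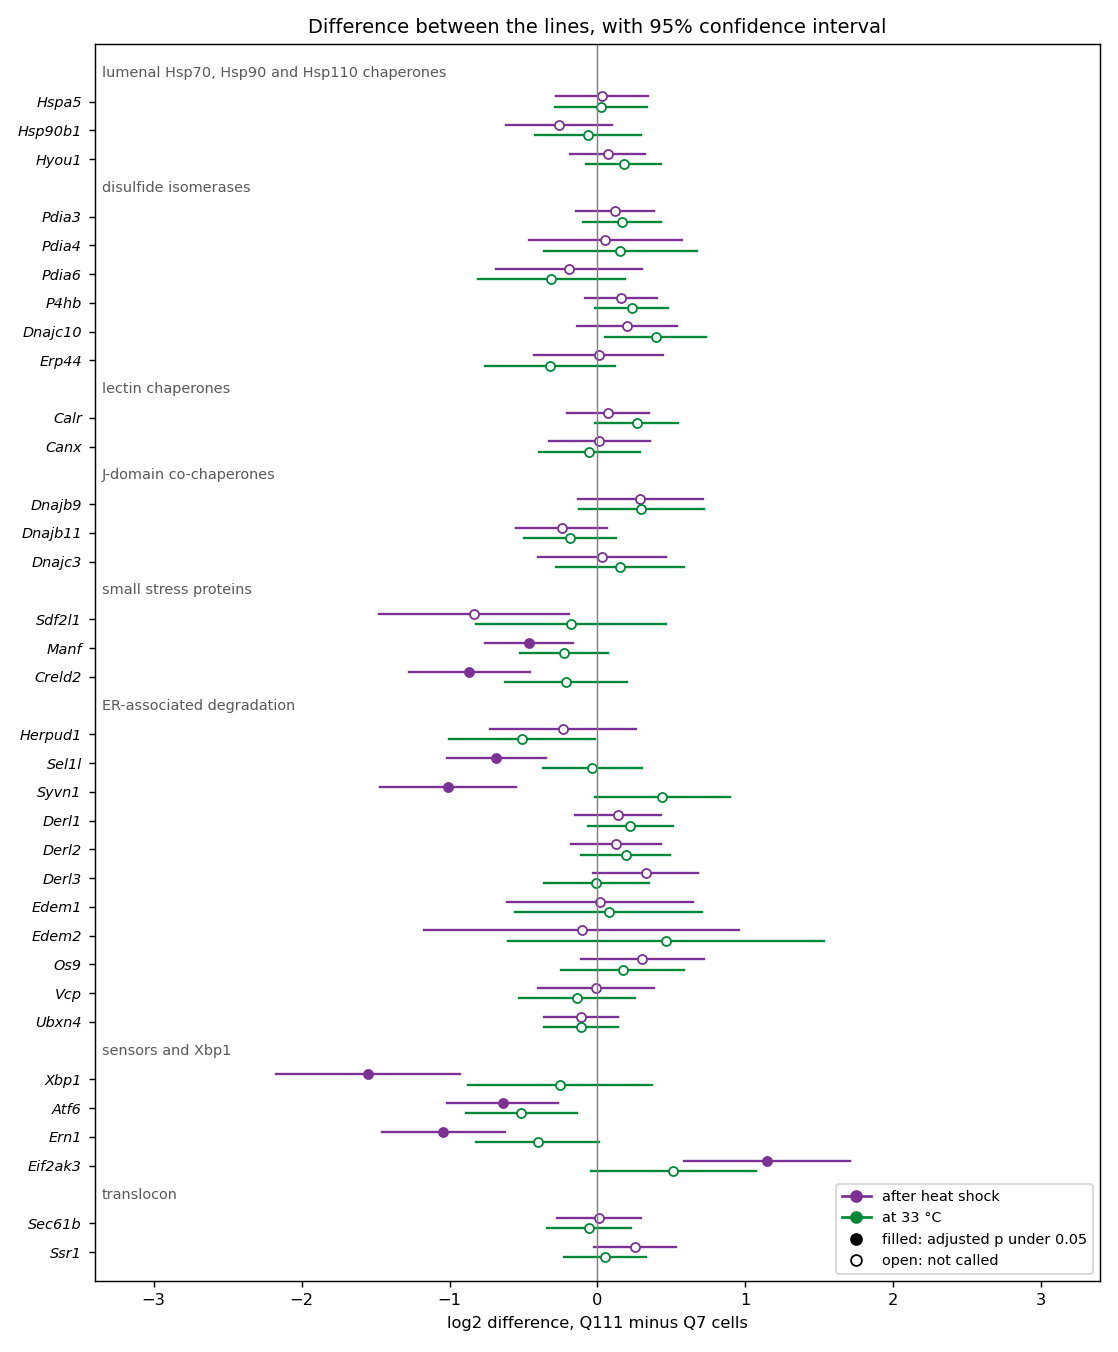
Difference between the lines for each of the 34 ER genes, as log2 Q111 minus Q7 with its 95% confidence interval, after heat shock (purple) and at 33 °C (green), grouped by role. Filled points passed an adjusted p of 0.05. All filled points are from heat-shocked cells, with Eif2ak3 to the right of 0 and Xbp1, Ern1, Syvn1, Creld2, Sel1l, Atf6 and Manf to the left.

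The widest gap was in Xbp1, at 8.62, 8.75 and 7.64 in heat-shocked Q111 cells, against 10.08, 9.73 and 9.86 in heat-shocked Q7 cells. The highest Q111 array was below the lowest Q7 array. The difference was -1.55 ± 0.28, a ratio of 0.342 (limma, adjusted p = 0.0025). The other 3 Xbp1 probe sets gave -1.76, -1.31 and -1.88, all called lower.

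Ern1 followed, with a mean of 8.10 ± 0.17 in heat-shocked Q111 cells, against 9.14 ± 0.12 in heat-shocked Q7 cells (SD, n = 3 each). No arrays overlapped, and the difference was -1.04 ± 0.19 (limma, adjusted p = 0.00238). The 4 other Ern1 probe sets had mean levels below 5.14 and differed by -0.04 to 0.98 in the same comparison, and the mean of all Ern1 probe sets gave 0.06.

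Syvn1 differed by -1.01 ± 0.21, with means of 9.05 ± 0.25 in heat-shocked Q111 cells and 10.06 ± 0.11 in heat-shocked Q7 cells (SD, n = 3 each, limma, adjusted p = 0.005). Its second probe set was called lower too, at -0.79. Creld2, with means of 10.94 ± 0.26 and 11.81 ± 0.13, differed by -0.87 ± 0.19 (adjusted p = 0.00662). For both genes every heat-shocked Q111 array was below every heat-shocked Q7 array.

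Sel1l differed by -0.68 ± 0.15, Atf6 by -0.64 ± 0.17 and Manf by -0.46 ± 0.14 (limma, adjusted p = 0.00788, 0.0197 and 0.03). None of the 3 overlapped between the lines, but 2 of the calls depended on single arrays. Manf was not called, with values of -0.46 to -0.40, without replicate 1 or 3 of the heat-shocked cells of either line, and Atf6 was not called, with values of -0.65 to -0.53, without heat-shocked Q7 replicate 1 or 3 or heat-shocked Q111 replicate 3. Centred on the median of genes the 3 values were -0.31, -0.26 and -0.09, not called. The next 2 Sel1l probe sets gave 0.21 and 0.27, so the Sel1l probe sets disagree in this comparison.

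Eif2ak3 stood at 10.21 ± 0.27 in heat-shocked Q111 cells, against 9.06 ± 0.19 in heat-shocked Q7 cells (SD, n = 3 each). The difference was 1.15 ± 0.25, 2.21-fold (limma, adjusted p = 0.00766), with all Q111 arrays higher. Under centring on the median of genes it was 1.52. The other 2 Eif2ak3 probe sets gave 0.57, not called, and 1.63, called higher. Sdf2l1 differed by -0.83 ± 0.29 and missed the threshold (limma, adjusted p = 0.0637). Its highest Q111 array lay above its lowest Q7 array, and the Q111 arrays spread over more than a log2 unit.

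Markers of cell type also moved with heat shock and between the lines. After heat shock 4 of 7 fibroblast markers were lower in each line and 1 higher in each. In heat-shocked Q111 cells 3 markers each of striatal projection neurons (of 8 measured), neurons and astrocytes (of 6 each) were higher. In Q7 cells 1, 0 and 1 were. Of microglia markers 2 of 6 and of endothelium markers 2 of 5 were also higher in Q111 cells, and 0 in Q7 cells. Of all genes 20.0% were called higher and 28.2% lower after heat shock in Q111 cells, and 12.3% and 18.1% in Q7 cells. Means at 33 °C in Q111 cells were below 5.14 for some markers, such as Snap25 (3.78), Syt1 (4.08), Drd1 (4.58) and Aqp4 (3.27). Of 8 neural progenitor markers 4 were lower in Q111 cells after heat shock and 4 at 33 °C. Their summed log2 level was 48.1 to 48.8 in heat-shocked Q111 cells, against 63.5 to 64.3 in heat-shocked Q7 cells, and 48.8 to 50.9 in Q111 cells at 33 °C, against 66.0 to 66.8 in Q7 cells at 33 °C. Of 7 fibroblast markers 3 were higher in Q111 cells after heat shock and 2 at 33 °C, with sums of 60.1 to 62.6 in heat-shocked Q111 cells, against 53.7 to 54.0 in heat-shocked Q7 cells. At 33 °C the fibroblast sums were 65.7 to 65.8 in Q111 cells and 57.0 to 58.8 in Q7 cells, and Thy1 and Lum were within background range on every array. Of 6 astrocyte markers 2 were higher in Q111 cells after heat shock and 1 at 33 °C. Of all genes 6.58% were called higher and 15.5% lower in Q111 cells after heat shock, and 5.11% and 5.68% at 33 °C. The part of cell state in these results was not tested.

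Whether heat shock acted differently in the lines was tested as the Q111 change minus the Q7 change. Of 34 members 0 were called higher and 1 lower, against 1.21% and 4.51% of all genes, and 5 had an unadjusted p under 0.05, against 21.2% of all genes. The 1 was Syvn1, with a change of -0.79 in Q111 cells and 0.66 in Q7 cells. The difference was -1.45 ± 0.29 (limma, adjusted p = 0.0183, 95% interval -2.10 to -0.80). Without heat-shocked Q7 replicate 3 it was -1.41 and no longer called (adjusted p = 0.0592), and with the actin gap in the model it was -1.25 (adjusted p = 0.0808). The second Syvn1 probe set gave -1.01 without a call.

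Xbp1 had a difference of -1.30 ± 0.40 that missed the threshold (limma, adjusted p = 0.0872), and its other 3 probe sets gave -1.94, -1.15 and -1.64, also not called. Creld2, Sel1l and Ern1, with differences of -0.65 ± 0.26, -0.65 ± 0.22 and -0.64 ± 0.27, completed the members with an unadjusted p under 0.05 (adjusted p = 0.184, 0.108 and 0.198). For Dnajb9 and Pdia4, called in the same direction in both lines, the 95% intervals of the difference were -0.60 to 0.59 and -0.83 to 0.63. A difference within those ranges is not excluded with 3 arrays a group. The intervals are not limits of detection at the threshold used, since a larger difference, that of Xbp1, was not called either. The less bright Edem1 probe set was called in this comparison, at -1.31, while the brightest gave -0.06.

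**Figure D4:**
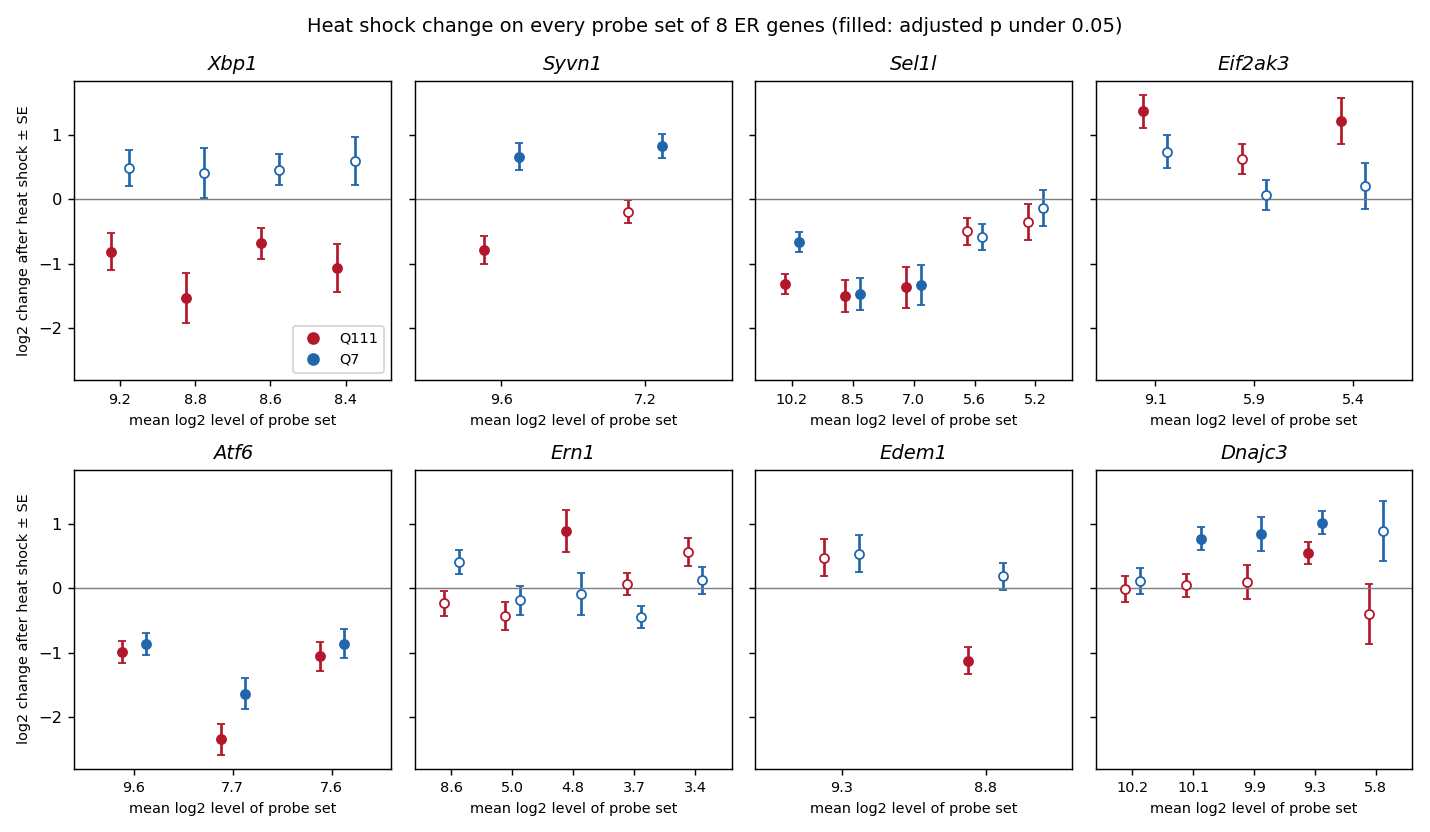
Heat shock change (log2, ± SE) on every probe set of 8 ER genes, ordered by the mean log2 level of the probe set on the horizontal axis, in Q111 cells (red) and Q7 cells (blue), with filled points where the adjusted p over all probe sets was under 0.05. The 4 Xbp1 probe sets lie below 0 in Q111 cells and above 0 in Q7 cells, the 3 Atf6 probe sets lie below 0 in both lines, and the probe sets of Edem1, Ern1 and Dnajc3 disagree among themselves.

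Most members were read by more than 1 probe set, and 8 by 1 alone (Creld2, Derl3, Dnajb11, Dnajb9, Manf, P4hb, Sdf2l1 and Sec61b). Of the 15 members called in Q111 cells 11 had another probe set above background, and for 7 of these at least 1 other was not called the same way. Of the 15 called in Q7 cells 10 had another above background, and for 5 at least 1 was not called the same way. In no called member was another probe set above background called in the opposite direction.

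The promoters were set beside these changes as a description. Of the 9 members with the ER stress element, Pdia6 rose in both lines, Canx in Q111 cells, and Creld2 in Q7 cells, while Syvn1 fell in Q111 cells and rose in Q7 cells. Hspa5, Hsp90b1, Calr and Dnajc3 were not called on their brightest probe sets, and Derl3 was in background range. Sdf2l1, Dnajb9, Pdia4 and Pdia3 rose in both lines and had no match to these letters in the 300 bases read.

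**Figure D5:**
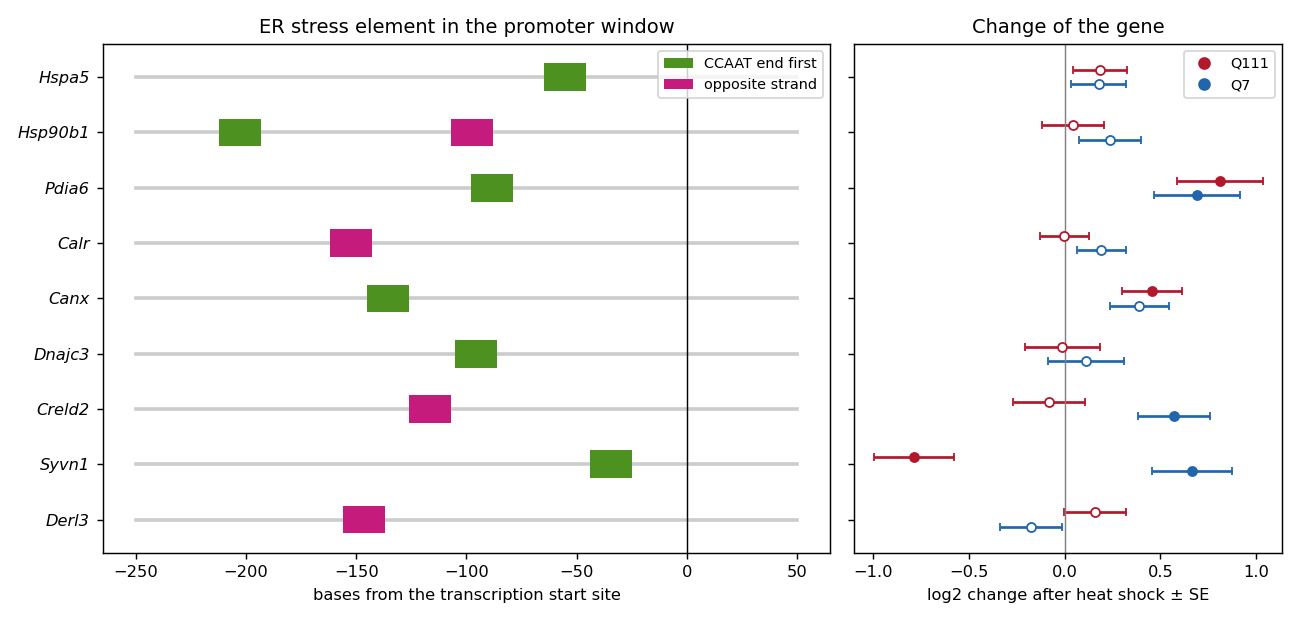
Left, position of the ER stress element in the promoter window of 9 ER genes, in bases from the transcription start site, with the strand by colour. Right, heat shock change of the same genes (log2, ± SE) in Q111 cells (red) and Q7 cells (blue), with filled points for an adjusted p under 0.05. Pdia6, Canx, Creld2 and Syvn1 have filled points, and Hspa5, Hsp90b1, Calr, Dnajc3 and Derl3 have none.

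Further genes of the pathway, 71 that are no members and of which 68 were measured, were read against the same background. In Q111 cells 12 were called higher and 22 lower, beside 20.0% and 28.2% of all genes, with a median of -0.14. In Q7 cells 11 were called higher and 18 lower, beside 12.3% and 18.1% of all genes, with a median of -0.19. Serp1, a small protein bound to the translocon, rose by 0.91 in Q111 cells and 0.92 in Q7 cells, and Sdf2, a relative of Sdf2l1, rose by 0.72 in Q111 cells and 0.87 in Q7 cells. In Q111 cells the rises were led by Ppp1r15a (GADD34), which reverses the phosphorylation of eIF2, at 1.25 ± 0.36, with Fkbp11, a prolyl isomerase, at 0.84 and the ubiquitin-conjugating enzyme Ube2g2 at 0.82. In Q7 cells Hmox1 (heme oxygenase) rose by 0.86 and the ligase Rnf5 by 0.84. Of the 6 genes of the PERK branch 1 was called in Q111 cells and 0 in Q7 cells (limma, 2 and 0 at an unadjusted p under 0.05).

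Of 6 genes that activate or resemble ATF6, 5 were called lower in Q111 cells and 3 in Q7 cells, where 28.2% and 18.1% of all genes were, and 0 were called higher in either. The group itself was not tested. Creb3l2, a membrane-bound relative of ATF6, fell, with changes of -3.13 ± 0.27 in Q111 cells and -1.60 ± 0.27 in Q7 cells, and Creb3l1, another, fell in Q111 cells, with a change of -2.43, and had a difference of -0.30 in Q7 cells without a call. These 2 were also the wider genes called in the difference of the changes, Creb3l1 at -2.13 ± 0.41 and Creb3l2 at -1.53 ± 0.38 (limma, adjusted p = 0.0152 and 0.0401). Wfs1 (wolframin) fell, with changes of -2.64 ± 0.23 in Q111 cells and -2.03 ± 0.23 in Q7 cells. Sil1, a nucleotide exchange factor of Hspa5, fell too, with changes of -1.04 in Q111 cells and -1.86 in Q7 cells, as did the co-chaperone Dnajb12, with -1.94 in Q111 cells and -1.36 in Q7 cells. The calcium-binding protein Nucb2 had changes of -0.67 in Q111 cells without a call, and -1.74 in Q7 cells, called lower.

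Between the lines, Fkbp11 and Nupr1, a stress-induced chromatin protein, were lower in Q111 cells at 33 °C (5.68% of all genes were), with differences of -0.97 and -0.70, and 0 wider genes were higher. After heat shock 2 of the 68 were higher and 8 lower in Q111 cells, where 6.58% and 15.5% of all genes were, so they were not called more often than genes at large. The 2 were the lectin Erlec1 at 1.01 ± 0.24 and the peroxidase Prdx4 at 0.40 ± 0.13. The 8 that were lower were led by Creb3l1 at -1.22, the co-chaperones Dnajb14 at -1.07 and Dnajb12 at -0.98, and the oxidase Ero1b at -0.91 (limma, adjusted p from 0.000538 to 0.0141).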

How the data were processed

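Gene expression was read on Affymetrix MG430 2.0 arrays from total RNA purified on RNeasy columns and biotin-labelled, as the labels' protocols state. RMA was applied by the authors before they deposited these log2 signals, per the submitters' processing notes. The software, its version and the chip definition were not given in the sources used here, and scanner files were not used here. RMA evens out the distributions of all probe sets. The largest distance left between any array and the mean of all arrays at the same quantile was 0.49. The gap between a pair of arrays can be larger. Medians over the 18193 genes used still ran from 6.43 to 7.47 between arrays and were lower after heat shock, so centring on them raises every heat shock change, and a shift in total mRNA per cell cannot be read from these values.

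Of 45101 probe sets, 64 were controls, 34945 named 1 gene, 932 several and 9160 none, and 34741 of those with 1 gene were matched to RefSeq gene identifiers. The probe set with the greatest average stood for each of 18193 genes. Genes were fitted with 4 group means in limma 3.58.1 (R 4.3.3), with 8 residual and 3.23 prior degrees of freedom. The p-values are two-sided and Benjamini-Hochberg adjusted over all genes, and every adjusted p in the text is from limma. The test was tried on simulated data, and figures were made with matplotlib 3.10.9 in Python 3.11.15. The number of arrays limits the precision, and 5.14, the highest value of 27 bacterial control probe sets, bounds the background range.

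The 34 members, their roles and all gene lists were chosen with earlier results of these data known. Array values are given for members called in a comparison of the lines or in the difference of the changes, for the 10 members with the largest heat shock change in either line, and for the 4 genes of stress sensing. Of the wider ER genes, up to 4 called higher and 4 called lower with the largest change are named in each comparison. Hspa5, named as the usual readout, is outside this rule. Protein sequences were not used here. Array scaling, probe set choice, RNA quality, variance model, array weights, the replicate block, a filter on dim genes, the threshold and leaving out each array were varied.

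The groups share replicate numbers. Deviations from the group means of same-numbered arrays correlated at 0.52, 0.40 and 0.58 between Q111 and Q7 cells at 33 °C. Differently numbered arrays there correlated at -0.43 to -0.08. Between the heat-shocked lines, however, differently numbered arrays reached 0.59. A pairing by number at 33 °C is therefore possible but not established. The main fit did not use such a pairing, at 33 °C or elsewhere, and only the fits with the replicate number as a block did. Correlations of heat-shocked arrays with same-numbered arrays of the other groups ran from -0.50 to 0.35 and did not show a pairing.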

Additional observations from a re-analysis of the deposited data

Results flagged for a closer look

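Syvn1, the ubiquitin ligase HRD1, stood out because its response to heat differed between the lines by a test of the difference. On its brightest probe set it fell in Q111 cells (-0.79) and rose in Q7 cells (0.66), with no overlap of arrays in either line. The Q111 change minus the Q7 change was -1.45 (limma, adjusted p = 0.0183). Its second probe set gave -0.19 in Q111 cells, not called, and 0.82 in Q7 cells, called higher. Xbp1 stood out because every heat-shocked array was lower than every array at 33 °C in Q111 cells and higher in Q7 cells. Its Q111 change was -0.47 and not called without heat-shocked Q111 replicate 3 (limma, adjusted p = 0.111). Its Q111 change minus Q7 change was -1.30, and this difference was tested and missed the threshold (limma, adjusted p = 0.0872).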

How the results depend on the processing

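Counts of members called depended on the scaling, the actin gap, the array weights and the replicate block. Centring arrays on the median of genes gave 26 higher and 1 lower after heat in Q111 cells, 22 and 2 in Q7 cells, and 10 and 4 between the lines after heat shock; Dnajc10 in Q111 cells became 0.0102. Centring on ribosomal protein genes gave 5 higher in Q7 cells, and further quantile normalization 2 higher between heat-shocked lines. With the actin gap in the model, Q7 cells had 2 higher and 0 lower and the difference of the changes had 0 lower. Array weights gave 15 higher and 7 lower in Q7 cells, 5 higher between heat-shocked lines, and 1 higher and 3 lower in the difference. The 1 higher was Derl3, which was within background range on every array and was also among the 7. A variance trend, plain or robust, gave 1 member (P4hb) higher at 33 °C. At an adjusted p under 0.01, Q7 cells had 5 higher and the difference 0. The replicate block gave 0 lower between heat-shocked lines and 1 lower (Atf6) at 33 °C when only the arrays compared were fitted, and 1 higher and 7 lower between heat-shocked lines when all 12 arrays were fitted. The mean of all probe sets turned Ern1 between heat-shocked lines to 0.0622. Leaving out 1 array gave 5 to 10 higher and 4 to 5 lower in Q7 cells, 7 to 9 and 6 to 7 in Q111 cells, 1 and 5 to 8 between heat-shocked lines, 0 at 33 °C, and 0 to 1 lower in the difference. The cause of these shifts was not tested, except that a stricter threshold cannot add calls, by construction. Derl3 could not be measured above background.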
